A study of Mus musculus with 18 samples.

Results

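The 79 genes described here carry symbols of nuclear-encoded subunits of oxidative phosphorylation. They come from 14521 named genes in the skin and skin tumours of chronically irradiated mice. They were chosen by symbol alone and comprised the Nduf subunits, Sdha to Sdhd, the Uqcr genes, Cox4 to Cox8 and the Atp5 genes. Subunits with other symbols, such as Cyc1 of complex III, are not among them. By complex, 34 belonged to complex I, 4 to complex II, 8 to complex III, 15 to complex IV and 15 to complex V. Ndufa4 and Ndufa4l2 were counted with complex IV, Cox7a2l was kept apart as a supercomplex factor, and Atp5s and Atp5sl carry the Atp5 name but are not subunits of the enzyme. Cox4i2, Cox6b2, Cox7b2 and Cox8c were not among the genes analysed here.

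RNA was sequenced from 6 female littermates of the SKH-1E hairless strain, an outbred and immunocompetent line prone to tumours under ultraviolet light, all of them exposed over a long period to a solar simulator. From every mouse, 3 tissues were sequenced, so that n = 6 in each group. CHR is chronically irradiated skin without a lesion, PAP is a papilloma, and SCC is a squamous cell carcinoma of the skin. No unirradiated skin was analysed here, and the libraries are of bulk tissue, for which the depth of the excision into dermis and muscle is not given in the sources used here. Each pair of the 3 comparisons shares 1 group of libraries. Reads counted on the named genes, recovered from the deposited values, numbered 15.4 to 21.0 M per library, which is not the full sequencing depth. The 15 keratinocyte markers, mostly keratins and adhesion genes, summed to at least 339855 normalised reads in every library, and PAP had 12 of them higher and 1 lower against CHR. Against the same skin, 12 of 13 adipocyte, 10 of 10 sebaceous gland, 7 of 12 pericyte and smooth muscle, 5 of 8 dermal fibroblast, 7 of 7 T cell and 5 of 8 myeloid markers were lower in PAP, and 2 myeloid markers were higher. The 25 skeletal muscle markers took 2.4 to 3.48% of the reads in CHR, 0.00279 to 0.194% in PAP and 0.0038 to 1.16% in SCC. The papilloma of mouse 2 was the highest PAP library for these muscle markers, and the carcinoma of mouse 10 was the lowest SCC library, at the level of the papillomas. In bulk tissue, fewer cells of a type and less RNA per cell cannot be told apart. Levels are given as normalised reads, that is, reads recovered from the deposited values and scaled to a common depth.

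Oxidative phosphorylation passes electrons from NADH through complex I, or from succinate through complex II, to complex III, cytochrome c and complex IV, where oxygen is reduced. Complexes I, III and IV pump protons across the inner mitochondrial membrane, and complex V, the ATP synthase, uses the gradient to make ATP. Most subunits are expressed in nearly every cell, but complex IV has paired isoforms. Cox6a2, Cox7a1 and Cox8b are the forms of heart and skeletal muscle, and Cox6a1, Cox7a2 and Cox8a are their counterparts in other tissues. Ndufa4l2 is a paralogue of Ndufa4 that is known as a target of hypoxia-inducible factor.

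Known motifs of factors that govern mitochondrial and muscle genes were looked up in the promoters. The 200 bases before the transcription start are shown for 2 muscle isoforms and their 2 ubiquitous partners, which moved differently, and for 3 subunits that were higher in PAP and hold a motif. The sequences are the GRCm38.p6 windows of RefSeq, read 5′ to 3′ on the strand of the gene, and capitals mark a motif on either strand. The start that RefSeq gives can differ from the gene coordinates below, which are from GENCODE. The windows are chr7:30183971-30184170 (plus strand) for Cox7a1, chr7:140900447-140900646 (minus) for Cox8b, chr9:79759854-79760053 (minus) for Cox7a2, chr19:7217617-7217816 (minus) for Cox8a, chr9:50603850-50604049 (minus) for Sdhd, chr2:73911327-73911526 (minus) for Atp5g3 and chr2:36049339-36049538 (minus) for Ndufa8.
Cox7a1: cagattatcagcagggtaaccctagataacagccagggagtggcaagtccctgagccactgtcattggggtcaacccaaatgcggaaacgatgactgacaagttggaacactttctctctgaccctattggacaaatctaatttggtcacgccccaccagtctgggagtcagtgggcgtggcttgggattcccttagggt
Cox8b: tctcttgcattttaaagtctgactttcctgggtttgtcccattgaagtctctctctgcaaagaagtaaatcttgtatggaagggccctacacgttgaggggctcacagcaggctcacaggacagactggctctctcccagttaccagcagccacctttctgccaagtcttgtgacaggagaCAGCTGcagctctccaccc
Cox7a2: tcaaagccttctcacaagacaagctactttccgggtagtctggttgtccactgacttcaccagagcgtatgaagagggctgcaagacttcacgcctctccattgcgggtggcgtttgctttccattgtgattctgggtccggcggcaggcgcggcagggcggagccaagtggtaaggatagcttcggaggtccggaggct
Cox8a: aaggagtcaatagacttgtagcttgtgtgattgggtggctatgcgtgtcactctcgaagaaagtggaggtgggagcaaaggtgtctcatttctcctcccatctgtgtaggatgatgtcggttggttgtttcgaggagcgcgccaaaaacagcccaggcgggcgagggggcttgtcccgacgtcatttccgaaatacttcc
Sdhd: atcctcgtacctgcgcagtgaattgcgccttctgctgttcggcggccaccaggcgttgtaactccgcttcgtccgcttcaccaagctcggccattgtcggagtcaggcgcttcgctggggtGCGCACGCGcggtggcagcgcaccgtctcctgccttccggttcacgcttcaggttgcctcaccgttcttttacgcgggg
Atp5g3: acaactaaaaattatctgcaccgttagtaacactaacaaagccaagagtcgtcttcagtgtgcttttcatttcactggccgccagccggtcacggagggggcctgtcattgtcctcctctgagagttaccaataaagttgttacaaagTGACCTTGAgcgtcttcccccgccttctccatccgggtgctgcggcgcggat
Ndufa8: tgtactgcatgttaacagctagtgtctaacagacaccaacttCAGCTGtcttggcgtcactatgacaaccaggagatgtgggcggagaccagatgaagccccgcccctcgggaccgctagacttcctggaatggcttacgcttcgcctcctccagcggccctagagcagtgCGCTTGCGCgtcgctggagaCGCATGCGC

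In these stretches the capitals are an E-box (CAGCTG) in Cox8b, a motif of the nuclear respiratory factor NRF1 (GCGCANGCG) in Sdhd, a motif of the estrogen-related receptors (TCAAGGTCA, on the opposite strand) in Atp5g3, and an E-box with 2 NRF1 motifs in Ndufa8. The 6 motifs were searched on both strands of the window from 250 bases before to 50 after the start. None of them contains another. A window was found for 66 of the 79 genes. Of the muscle isoforms, only Cox7a1 and Cox8b had one, and Cox6a2 and Ndufa4l2 were among the genes without, so their promoters were not searched. A gene with several windows counted if any of them held the motif, whereas the shares of all windows count each window once. The shares of genes and of windows are therefore not like for like. The NRF1 motif was present in 19 of the 66 genes (28.8%), against 6.25% of all 32851 windows. The YY1 motif (AAGATGGCG) was present in 8 (12.1%, against 1.4%), the ETS or GABP motif (CCGGAAGT) in 5 (7.58%, against 3.89%), the receptor motif in 2 (3.03%, against 0.423%) and the E-box in 5 (7.58%, against 16.3%). The MEF2 motif, whose factor acts in muscle, was found in 0 of the 66 genes and in 0.557% of all windows. Among subunits called higher in PAP than in CHR, 6 of 13 with a window held the NRF1 motif (46.2%), against 13 of 53 of the others (24.5%). These matches describe letters and were not tested.

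In papillomas, a minority of the subunits moved. Compared with CHR, 15 of the 79 were higher and 3 were lower in PAP at an adjusted p under 0.05 (limma on the log2 of the deposited value plus 1, Benjamini-Hochberg over all genes). Over all genes, 22.8% were higher, 28.7% lower and 51.5% called in either direction, so that the 18 calls (22.8% of the members) were a smaller share than the background. The 3 lower genes were the muscle isoforms Cox6a2, Cox7a1 and Cox8b. The 15 higher genes were Ndufa8, Ndufa11, Ndufa12, Ndufs6 and Ndufv3 of complex I, Sdhd of complex II, Uqcrc1 and Uqcrc2 of complex III, Cox5a, Cox7a2, Cox7c and Ndufa4l2 of complex IV, and Atp5b, Atp5d and Atp5g3 of complex V. Atp5d, Cox7c and Ndufa11 were not called when the mouse was a block (adjusted p = 0.0512, 0.0515 and 0.0708), whereas Ndufb2 was (adjusted p = 0.0469, higher). Calls of Atp5b, Atp5g3, Ndufa4l2, Ndufa8, Ndufa12, Ndufs6, Ndufv3, Sdhd and Uqcrc1 in PAP against CHR held in every alternative run. The call of Atp5d was lost without mouse 3, 7, 8 or 9 or the carcinoma of mouse 10, and that of Ndufa11 without mouse 2, 3, 7, 8 or 9 or the papilloma of mouse 2. Cox7a2 lost its call without mouse 3, 7 or 9 and Uqcrc2 without mouse 8 or 9, and both did without the papilloma of mouse 2. Quantile normalisation raised the count of higher members to 40 and moved the median of all genes by 0.165 on the log2 scale.

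**Figure D1:**
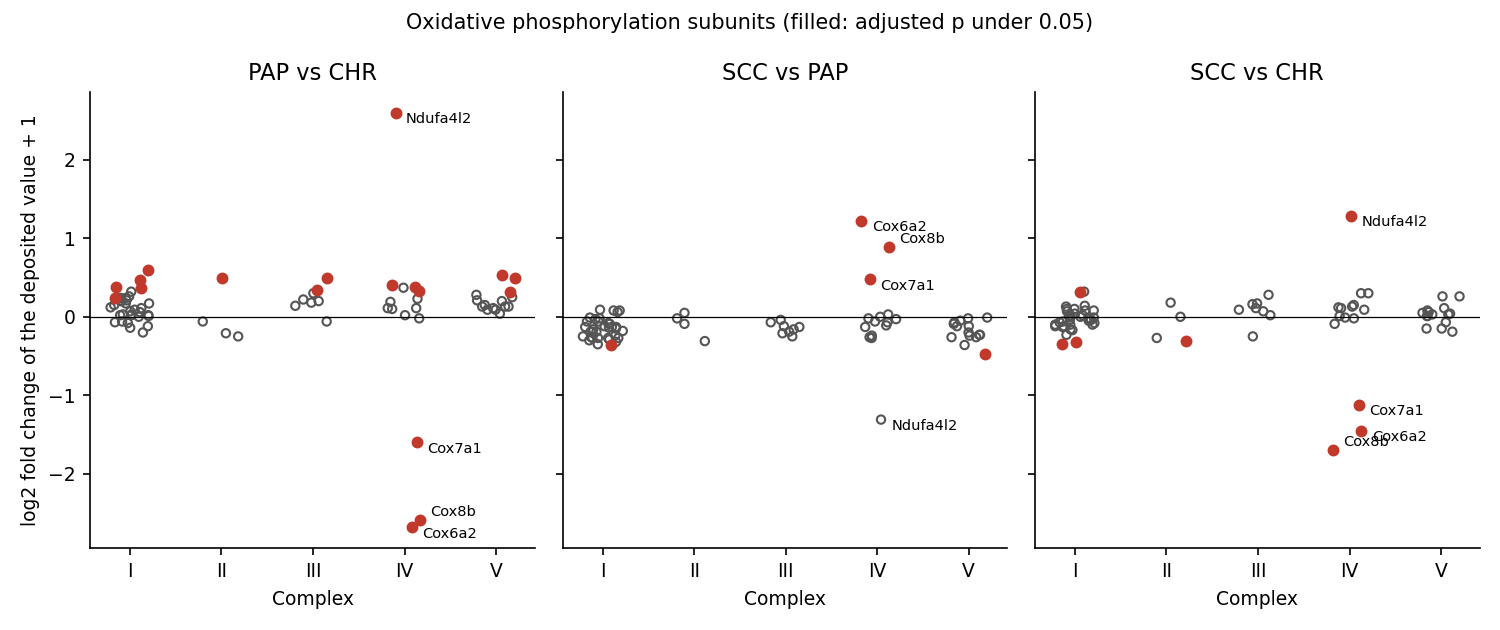
Log2 fold change of each subunit (vertical axis, on the scale of the deposited value plus 1) by complex, for PAP against CHR, SCC against PAP and SCC against CHR. Each point is 1 gene and filled points had an adjusted p under 0.05. In PAP against CHR, the 3 muscle isoforms and Ndufa4l2 lie outside the range of -0.25 to 0.59 that holds the other 72 subunits.

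Apart from the muscle isoforms and Ndufa4l2, changes were small. Among the 72 remaining subunits, 14 rose in PAP and 0 fell. In either direction, 22 of them had an unadjusted p under 0.05, against 8311 of all 14521 genes. The median log2 fold change of the 72 was 0.15, against 0.00 over all genes. Of the 72, 0 differed more than 2-fold, against 19.8% of all genes. The share of calls among these 72 was 19.4%, against 51.5% of all genes (22.8% higher and 28.7% lower).

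The muscle isoforms of complex IV had, with Ndufa4l2, the largest differences among the members. Cox6a2 (chr7:128205435-128206387) ranged from 190 to 315 normalised reads in CHR (median 280.0), from 0 to 20.1 in PAP (median 3.40) and from 1.64 to 146 in SCC (median 66.7). Every PAP and SCC library lay below every CHR library, and the PAP and SCC ranges overlapped only because of the carcinoma of mouse 10. On the scale of the deposited values, Cox6a2 was lower in PAP than in CHR by a log2 fold change of -2.68 ± 0.26 (s.e., adjusted p = 4.01e-07), and the mean of normalised reads was 51.5-fold higher in CHR.

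Cox7a1 (chr7:30184144-30186078) followed the same order. Its normalised reads ranged from 53.6 to 116 in CHR (median 103), from 1.64 to 7.25 in PAP (median 2.58) and from 3.63 to 23.2 in SCC (median 18.3). The carcinoma of mouse 10 again lay among the papillomas, and the other 5 carcinomas lay between the papillomas and CHR. The log2 fold change in PAP against CHR was -1.60 ± 0.13 (adjusted p = 8.05e-08), and CHR was 28.0-fold higher in normalised reads.

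Cox8b (chr7:140898945-140900446) ranged from 139 to 240 normalised reads in CHR, with a median of 197. In PAP, 5 of 6 libraries had 0 reads and the papilloma of mouse 2 had 17 reads. In SCC, the carcinoma of mouse 10 had 0 reads and the other 5 ranged from 26.3 to 43.9 normalised reads. No CHR library overlapped with a tumour library. A count of 0 allows up to 3 reads, which is at most 3.59 normalised reads in these papillomas, and the CHR mean of 195 was at least 54.3-fold higher than that limit, which covers counting error only. The log2 fold change against CHR was -2.59 ± 0.21 in PAP (adjusted p = 9.48e-08) and -1.70 ± 0.21 in SCC (adjusted p = 1.38e-05).

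**Figure D2:**
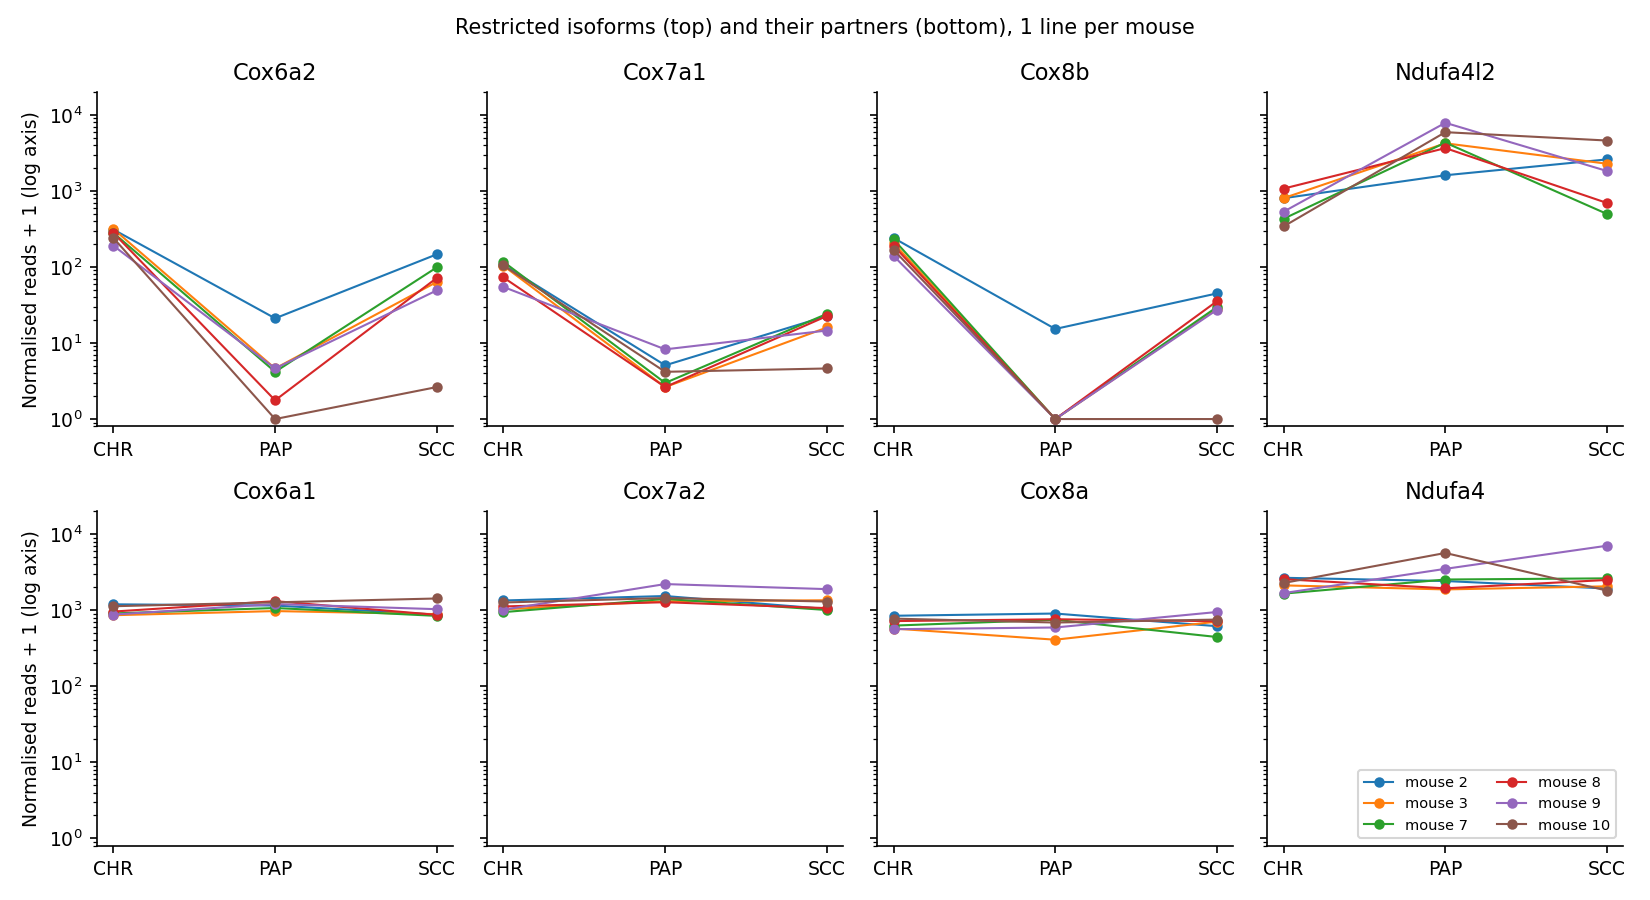
Normalised reads plus 1 (log axis) of Cox6a2, Cox7a1, Cox8b and Ndufa4l2 (top) and of Cox6a1, Cox7a2, Cox8a and Ndufa4 (bottom) in CHR, PAP and SCC, with 1 line per mouse. The muscle isoforms fall in PAP in all 6 mice while their partners stay at 408 or more, and Ndufa4l2 rises in PAP in all 6 mice.

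The ubiquitous partners did not follow. Cox6a1 had 986 ± 141 (s.d.), 1162 ± 127 and 987 ± 224 normalised reads in CHR, PAP and SCC, and Cox8a had 682 ± 114, 682 ± 169 and 696 ± 165. For Cox8a, the log2 fold change of PAP against CHR was -0.02, with a 95% interval of -0.38 to 0.34. Cox7a2 rose in PAP, from 1117 ± 155 to 1528 ± 345 normalised reads (log2 fold change 0.41 ± 0.15, adjusted p = 0.0329, higher in 6 of 6 mice), although the ranges overlapped and the call was lost when mouse 3, 7 or 9 or the papilloma of mouse 2 was left out.

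Because the ratio of paired isoforms within a library does not depend on scaling, it was compared within mice by a two-sided exact sign-flip permutation test, for which 6 mice cannot give a p below 0.0312. The 4 pairs and 3 comparisons gave 12 tests, adjusted together. In CHR, Cox6a2 made up 17.5 to 26.8% of the Cox6a1 and Cox6a2 reads, Cox8b 17.8 to 26.9% of the Cox8a and Cox8b reads, and Cox7a1 5.02 to 11% of the Cox7a1 and Cox7a2 reads. In PAP the highest shares were 1.72, 1.56 and 0.328%. In SCC the shares ranged from 0.115 to 14.3%, from 0 to 6.66% and from 0.279 to 2.26%. These are shares of reads and are not corrected for transcript length.

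For all 3 pairs, the log2 ratio fell from CHR to PAP in 6 of 6 mice, with differences of -6.35 ± 1.53 (s.d.) for Cox6a2, -4.96 ± 0.73 for Cox7a1 and -6.91 ± 1.44 for Cox8b (each exact p = 0.0312, adjusted p = 0.0417). SCC also lay below CHR in 6 of 6 mice, with differences of -2.54 ± 2.20, -2.71 ± 1.05 and -3.41 ± 1.98 (same exact p and adjusted p). The sizes depend on the added 1. With 10 added, the differences of PAP from CHR were -4.52, -3.35 and -4.10, and on the deposited values they were -2.93, -2.03 and -2.60. Those of SCC from CHR were -2.10, -2.13 and -2.63 with 10 added and -1.45, -1.29 and -1.72 on the deposited values. Between PAP and SCC of the same mouse it was higher in SCC by 3.81 ± 1.60 for Cox6a2 and 2.25 ± 1.29 for Cox7a1 (6 of 6 mice, exact p = 0.0312, adjusted p = 0.0417), and by 3.50 ± 2.16 for Cox8b, where 5 of 6 mice were higher and the exact p was 0.0625 (adjusted p = 0.0750). With 10 added, these differences of SCC from PAP were 2.43, 1.22 and 1.47, and on the deposited values 1.48, 0.75 and 0.88.

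The skeletal muscle marker list moved with these isoforms. Of its 25 genes, 24 were lower in PAP than in CHR (28.7% of all genes) and 21 were higher in SCC than in PAP (4.99% of all genes). In SCC against CHR, 21 were lower and 1 higher (21.4% and 15.1% of all genes). Together they had 426230 to 641445 normalised reads in CHR, 515 to 32432 in PAP and 658 to 212171 in SCC, and no marker was at 0 reads in all 6 libraries of a group. The papilloma of mouse 2, which had the most Cox6a2 and the only Cox8b reads among the papillomas, had a sum of 32432, against at most 1664 in the other 5. The carcinoma of mouse 10, with 2 reads of Cox6a2, 4 of Cox7a1 and 0 of Cox8b, had a sum of 658, against at least 82733 in the other 5. Per 1000 reads of the marker list, Cox6a2 stood at 0.445 to 0.590 in CHR and at 0.458 to 0.696 in the 5 carcinomas other than that of mouse 10. On the same measure Cox7a1 stood at 0.126 to 0.231 in CHR and 0.102 to 0.165 in those 5 carcinomas, and Cox8b at 0.326 to 0.458 and 0.204 to 0.318, respectively. The ranges of Cox6a2 and Cox7a1 thus overlapped between CHR and these carcinomas, and those of Cox8b did not. In the papilloma of mouse 2, the measure was 0.620 for Cox6a2, 0.126 for Cox7a1 and 0.441 for Cox8b, the latter pair within the CHR ranges. In the other papillomas, the marker sum was too low for such a comparison, since each isoform had at most 6 reads. The adipocyte list moved as well, with 12 of 13 lower in PAP and in SCC than in CHR and 1 higher in SCC than in PAP. Its sums were 22483 to 37955 normalised reads in CHR, 2722 to 14196 in PAP and 4068 to 24571 in SCC. The parts of muscle and adipocyte content in the isoform differences were not tested.

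**Figure D3:**
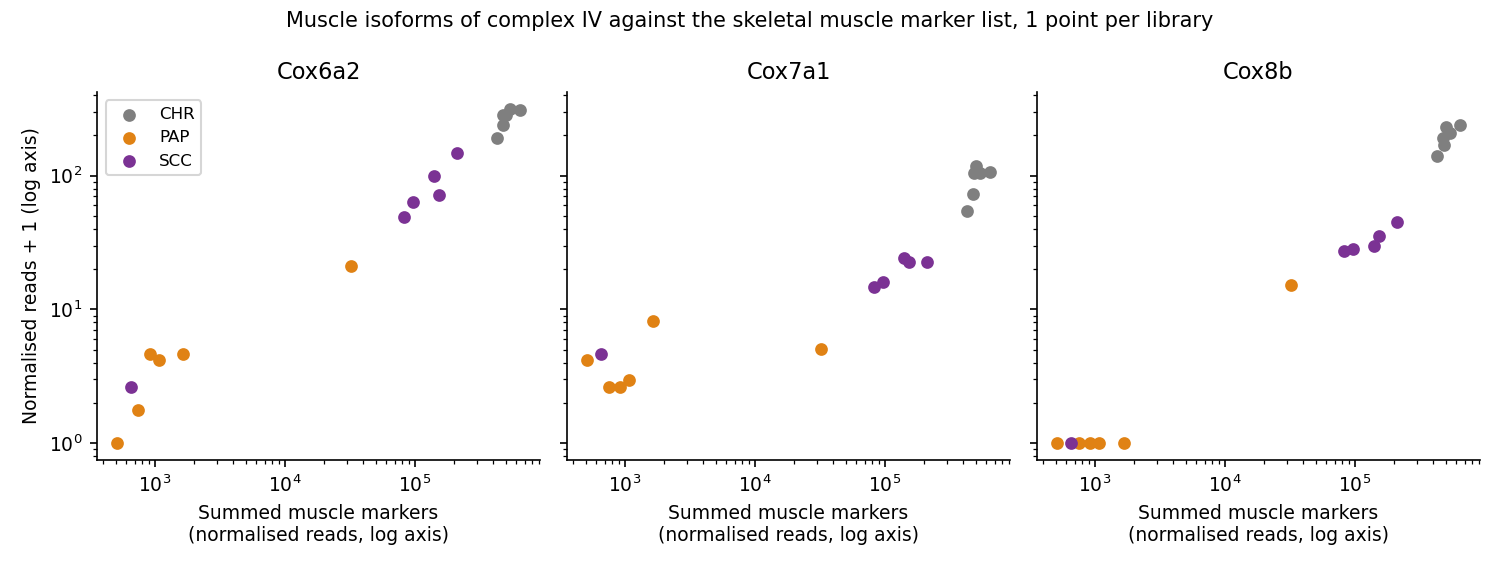
Normalised reads plus 1 of Cox6a2, Cox7a1 and Cox8b (vertical log axes) against the summed normalised reads of 25 skeletal muscle markers (horizontal log axes), with 1 point per library coloured by group. The 6 CHR libraries lie at the upper right, 5 carcinomas and the papilloma of mouse 2 lie between, and the other 5 papillomas lie at the lower left with the carcinoma of mouse 10.

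Ndufa4l2 (chr10:127514967-127517154) was the member with the largest rise in papillomas. It ranged from 340 to 1072 normalised reads in CHR (median 667), from 1606 to 7872 in PAP (median 4272) and from 496 to 4599 in SCC (median 2051). All papillomas lay above all CHR libraries, while the carcinomas overlapped with both. The log2 fold change in PAP against CHR was 2.60 ± 0.46 (adjusted p = 0.000138), a 6.94-fold difference of means. In SCC it was 1.29 ± 0.46 against CHR (adjusted p = 0.0334, higher in 5 of 6 mice), a call that was lost without mouse 2, 3, 9 or 10 or without the carcinoma of mouse 10 alone. Against PAP it was -1.31 ± 0.46 (adjusted p = 0.0917, lower in 5 of 6 mice), and this difference passed the threshold without mouse 10, the carcinoma of mouse 10 or the papilloma of mouse 2.

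Ndufa4 itself, the subunit that Ndufa4l2 resembles, was not called in any comparison (2157 ± 430, 2984 ± 1431 and 2992 ± 2011 normalised reads in CHR, PAP and SCC). The papilloma of mouse 10 (5653) and the carcinoma of mouse 9 (7044) were high. For Ndufa4l2 over Ndufa4, the log2 ratio exceeded that of CHR by 2.37 ± 0.65 in the papillomas of 6 of 6 mice (exact p = 0.0312, adjusted p = 0.0417), and the share of Ndufa4l2 in the reads of the pair went from 13 to 29.6% in CHR to 39.9 to 69.3% in PAP. In SCC this share ran from 15.9 to 71.8%, and the ratio differed neither from PAP (exact p = 0.1875, adjusted p = 0.2045) nor from CHR (exact p = 0.2500, the same after adjustment) beyond the spread between mice. Markers of pericytes and smooth muscle, in which Ndufa4l2 is also known to be expressed, summed to 16784 to 18645 normalised reads in CHR and 4494 to 12786 in PAP, where 7 of 12 were lower and 0 higher while Ndufa4l2 was higher. Des is on this list and on the muscle list. In SCC that sum was 5245 to 23145, lowest in the carcinoma of mouse 10, which had the highest Ndufa4l2 level of the carcinomas. No marker of the list was at 0 in all libraries of a group, and its part in the level of Ndufa4l2 was not tested.

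Complex I, the NADH dehydrogenase, had 5 of 34 subunits up (14.7%, against 22.8% of all genes) and 0 down in PAP against CHR. The median log2 fold change was 0.11, and 8 of the 34 subunits had an unadjusted p under 0.05, against 8311 of all 14521 genes. Ndufa12, an accessory subunit, had the largest rise. It ranged from 372 to 417 normalised reads in CHR (median 385) and from 528 to 1002 in PAP (median 577), with no overlap (log2 fold change 0.59 ± 0.14, adjusted p = 0.00213). The papilloma of mouse 9 was far above the other 5, whose highest value was 623. In the annotation, 36.2% of the Ndufa12 transcript is nearly identical to another gene, so that its reads may be shared.

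Ndufa8 (chr2:36036326-36049406), an accessory subunit, was higher in both lesions. It ranged from 694 to 828 normalised reads in CHR, from 972 to 1373 in PAP and from 877 to 1225 in SCC, so that neither lesion overlapped with CHR. The log2 fold changes were 0.47 ± 0.10 in PAP (adjusted p = 0.000705) and 0.32 ± 0.10 in SCC (adjusted p = 0.0162, lost without mouse 9). Ndufs6 (0.38), Ndufv3 (0.37) and Ndufa11 (0.24) were the other complex I genes with higher calls in PAP, and 61.3% of the Ndufs6 transcript is nearly identical to another gene. Ndufs1, the subunit of complex I with the most reads, had 2624 ± 297, 2657 ± 217 and 2425 ± 377 normalised reads in CHR, PAP and SCC, and its 95% interval in PAP against CHR was -0.21 to 0.25 on the log2 scale.

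In carcinomas, 2 of the 34 complex I subunits were lower than in CHR, where 21.4% of all genes were lower. Ndufa13, also known as the cell death regulator GRIM-19, had 960 to 1193 normalised reads in CHR, 849 to 1245 in PAP and 711 to 939 in SCC. SCC did not overlap with CHR (log2 fold change -0.35 ± 0.10, adjusted p = 0.0109, lower in 6 of 6 mice), although the call was lost without mouse 2 and 30.0% of its transcript is nearly identical to another annotated gene. Ndufb10, an accessory subunit of the membrane arm, fell by a log2 fold change of -0.32 ± 0.11 (adjusted p = 0.0331, 1040 to 826 mean normalised reads, lower in 6 of 6 mice), and its call was lost without mouse 3, 7, 8 or 9 and under quantile normalisation. Ndufb10 is named here after its values were seen, since it was not the largest fall of its complex.

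Complex II links the citric acid cycle to the chain, and its 4 subunits did not move together. Sdhd, a membrane anchor, had 1637 to 1762 normalised reads in CHR (median 1701) and 2009 to 3228 in PAP (median 2365), with no overlap (log2 fold change 0.49 ± 0.12, adjusted p = 0.00299, higher in 6 of 6 mice). Sdha, the flavoprotein that oxidises succinate, had 3241 to 3861 in CHR, 2684 to 3675 in PAP and 2555 to 2927 in SCC. SCC lay below CHR throughout (log2 fold change -0.31 ± 0.09, adjusted p = 0.0122), a call lost without mouse 10. In PAP against CHR the value for Sdha was -0.21 ± 0.09 (adjusted p = 0.0516), which passed the threshold in 4 of the other processings and without mouse 9 or the papilloma of mouse 2. Sdhb, the iron-sulphur subunit, had 1599 ± 100, 1356 ± 294 and 1326 ± 214 normalised reads in CHR, PAP and SCC and was not called (adjusted p = 0.123 and 0.12 against CHR). Sdhc, the other anchor, had 1410 ± 93, 1377 ± 283 and 1434 ± 317. The difference between the log2 fold changes of Sdhd and Sdha was not tested.

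Of the 8 complex III members, 2 were higher in PAP (25%, against 22.8% of all genes), and both encode core proteins. Cyc1, a subunit of this complex outside the 79, is given further below. Uqcrc1 (chr9:108936633-108949623) ranged from 3253 to 4175 normalised reads in CHR (median 3708), from 4752 to 5840 in PAP (median 5095) and from 3472 to 5849 in SCC (median 4530). PAP did not overlap with CHR (log2 fold change 0.49 ± 0.11, adjusted p = 0.00133). In SCC against CHR the value was 0.28 ± 0.11 (adjusted p = 0.0582). Uqcrc2 rose in PAP by 0.34 ± 0.12 (adjusted p = 0.0214, 2825 to 3606 mean normalised reads, higher in 6 of 6 mice), with overlapping ranges. Of its transcript, 26.7% is nearly identical to another gene, and the call was lost without mouse 8 or 9 or the papilloma of mouse 2.

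Among the 11 complex IV genes other than the muscle isoforms and Ndufa4l2, 3 were higher in PAP (27.3%, against 22.8% of all genes) and 0 lower. Besides Cox7a2, these were Cox5a, which rose from a mean of 610 to 822 normalised reads (log2 fold change 0.38, adjusted p = 0.0172, 6 of 6 mice, 42.0% of the transcript nearly identical to another gene), and Cox7c, from 99.4 to 140 (0.33, adjusted p = 0.0378, 6 of 6 mice, 58.3% of the transcript nearly identical to other genes). The call of Cox5a was lost without mouse 7, and that of Cox7c without mouse 2, 3 or 8, without the papilloma of mouse 2 and under limma-voom on total reads. Cox4i1, the one of these 11 with the most reads, had 4465 ± 371, 4657 ± 1272 and 4207 ± 549 normalised reads in CHR, PAP and SCC. Cox6b1 had 1874 ± 257, 2052 ± 402 and 1854 ± 259, and Cox7b had 137 ± 35, 150 ± 16 and 151 ± 27. None of these 3 was called in any comparison. Cox7a2l, which helps to join complexes III and IV into supercomplexes, had 559 ± 86, 481 ± 76 and 466 ± 138 normalised reads and was not called either.

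The ATP synthase had 3 of 15 subunits higher in PAP (20%, against 22.8% of all genes) and 0 lower. All 15 log2 fold changes were above 0 (median 0.15). Atp5b, the catalytic beta subunit (chr10:128083273-128090391), was the member with the most reads per transcript length. It ranged from 13645 to 16859 normalised reads in CHR (median 14913), from 18234 to 37110 in PAP (median 19643) and from 15387 to 24835 in SCC (median 17694). PAP did not overlap with CHR (log2 fold change 0.53 ± 0.16, adjusted p = 0.00983), and the papilloma of mouse 9 had the value of 37110, against 22085 for the next.

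The membrane ring of the enzyme is built from a single protein encoded by 3 genes, Atp5g1, Atp5g2 and Atp5g3. Atp5g3 carried most of the reads. It ranged from 2206 to 2999 normalised reads in CHR (median 2474) and from 3108 to 4760 in PAP (median 3441), without overlap (log2 fold change 0.49 ± 0.14, adjusted p = 0.00777, higher in 6 of 6 mice), and the SCC median was 3011. Atp5g1 (108 ± 15, 136 ± 35 and 122 ± 25 normalised reads) and Atp5g2 (43.7 ± 7.8, 53.2 ± 12.8 and 45.7 ± 17.5) were not called, and 20% and 88.2% of their transcripts is nearly identical to other annotated genes, so that their levels are uncertain.

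Atp5a1, the alpha subunit, had 13477 to 16375 normalised reads in CHR, 15846 to 20661 in PAP and 9144 to 16458 in SCC. It was lower in SCC than in PAP (log2 fold change -0.47 ± 0.12, adjusted p = 0.0353, 6 of 6 mice), with the carcinoma of mouse 7 the lowest library and only a narrow overlap. Against CHR, the PAP value was 0.28 ± 0.12 (adjusted p = 0.059, higher in 6 of 6 mice).

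Summed over the 76 subunits, which leave out Cyc1, reads were higher in the papilloma than in the skin of all 6 mice. They were lower in the carcinoma than in the papilloma of all 6. The sum was 104126 ± 8858 normalised reads for CHR, 128396 ± 14729 for PAP and 108135 ± 15244 for SCC. Mouse by mouse, the ratio of PAP to CHR ran from 1.06 to 1.62, that of SCC to PAP from 0.78 to 0.88 and that of SCC to CHR from 0.86 to 1.40 (higher in 3 of 6 mice). For the 72 subunits without the muscle isoforms and Ndufa4l2, the ratio of PAP to CHR ran from 1.06 to 1.55 and that of SCC to PAP from 0.80 to 0.90. Long and abundant transcripts weigh most in such a sum, and Atp5a1 and Atp5b together exceeded the other 13 subunits of complex V. These sums are descriptions, with no test.

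Complex by complex, the ratio of PAP to CHR had a median of 1.09 for complex I, 0.96 for complex II, 1.26 for complex III, 1.39 for complex IV and 1.22 for complex V. Complex III rose in 6 of 6 mice and stayed within a narrow range in PAP (13551 to 15481), and complex II rose in 2 of 6. Complex IV rose in 5 of 6, the exception being mouse 2 (16022 in CHR and 15403 in PAP). Much of that rise was Ndufa4l2, without which the ratio for complex IV ran from 0.91 to 1.34 with a median of 1.10. Without Atp5a1 and Atp5b, complex V rose in 5 of 6 mice (median ratio 1.21).

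**Figure D4:**
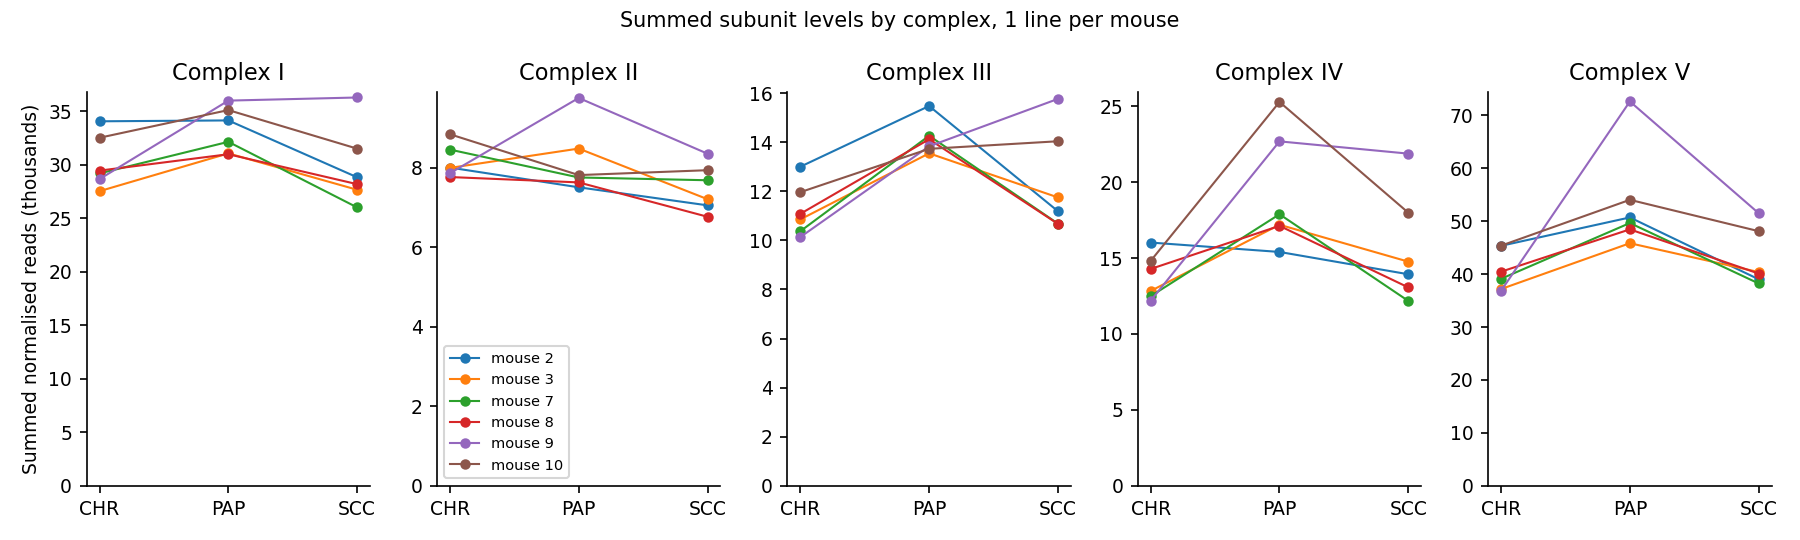
Summed normalised reads of the subunits of complexes I to V (vertical axes from 0, in units of 1000 reads) in CHR, PAP and SCC, with 1 line per mouse. Complexes I, III and V are higher in PAP than in CHR in all 6 mice, complexes IV and V are lower in SCC than in PAP in all 6 mice (for complex IV without Ndufa4l2 in 5 of 6, with mouse 9 higher in SCC), and mouse 9 stands highest in SCC for all 5 complexes.

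Between carcinoma and papilloma, few members passed the test. Of the 79, 3 were higher in SCC (the muscle isoforms) and 2 lower (Ndufb2 and Atp5a1), against 4.99% higher, 0.592% lower and 5.58% in either direction over all genes. The log2 fold changes were 1.22 ± 0.26 for Cox6a2 (adjusted p = 0.024), 0.48 ± 0.13 for Cox7a1 (adjusted p = 0.0399) and 0.89 ± 0.21 for Cox8b (adjusted p = 0.029). Ndufb2, an accessory subunit of complex I, ranged from 404 to 539 normalised reads in PAP and from 272 to 393 in SCC, with no overlap (log2 fold change -0.36 ± 0.10, adjusted p = 0.0448, lower in 6 of 6 mice).

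These 5 calls depended on the fit. With only PAP and SCC in the fit, or with limma-voom on the recovered reads under each of 3 scalings, 0 members were called in either direction. In each of these 4 fits, 3 members were higher, and 8 to 16 lower, at an unadjusted p under 0.05. In the main fit, 16 of the 79 members and 3289 of all 14521 genes passed that level. The 3 muscle isoforms also lost their calls without mouse 3, 7 or 8, Cox7a1 without mouse 2 and Cox8b without mouse 9. Ndufb2 and Atp5a1 lost theirs without mouse 2, 3, 7, 8 or 9, and Ndufb2 also without the papilloma of mouse 2. Without the carcinoma of mouse 10, 3 higher and 7 lower members were called. Among the 72 subunits other than the muscle isoforms and Ndufa4l2, 66 had a log2 fold change below 0 in SCC against PAP, with a median of -0.13 against -0.02 over all genes. In SCC against PAP, all 15 complex V members and all 8 complex III members were below 0. In the same comparison, the mean sum of the keratinocyte markers was 1248178 normalised reads in PAP and 798802 in SCC (2 of 15 lower, 0 higher). Those of the dermal fibroblast markers were 73799 and 230567 (1 of 8 higher), and those of the myeloid markers 24850 and 57264 (2 of 8 higher). Pericyte and smooth muscle markers had 7444 and 17820 (6 of 12 higher) and adipocyte markers 7340 and 12990 (1 of 13 higher). Sebaceous gland markers had 7254 and 11272 (1 of 10 higher) and T cell markers 374 and 683 (0 of 7 called). Over all genes, 4.99% were higher and 0.592% lower. The part of tissue makeup in the values of the subunits was not tested.

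Against non-lesional skin, 2 members were higher in SCC (Ndufa8 and Ndufa4l2) and 6 lower (the 3 muscle isoforms, Sdha, Ndufa13 and Ndufb10), against 15.1% higher, 21.4% lower and 36.5% in either direction over all genes. For the muscle isoforms, the log2 fold changes were -1.45 ± 0.26 for Cox6a2 (adjusted p = 0.000382), -1.12 ± 0.13 for Cox7a1 (adjusted p = 6.69e-06) and the value given above for Cox8b. The 72 other subunits had a median of 0.01, with 41 above 0 and 31 below.

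Mouse by mouse, the size of the rise in papillomas differed. Of the 72 subunits, 39 were higher in the papilloma than in the skin of mouse 2, 59 in mouse 3, 54 in mice 7 and 8, 63 in mouse 9 and 43 in mouse 10. Over all genes, the share that was higher ran from 47.8% in mouse 9 to 49.9% in mouse 8. The median log2 difference of the subunits was 0.06 in mouse 2 and 0.07 in mouse 10, against -0.03 and -0.02 over all genes. Mice 2 and 10, with the lowest counts, had the highest CHR sums (116448 and 113534 normalised reads over the 76 subunits). The counts are taken against these same CHR libraries, so counts and sums are not independent. In the carcinomas, 59 of the 72 were above the skin of the same mouse in mouse 9 and 14 in mouse 2, against 46.6% and 49.8% of all genes.

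Within a group, the subunits varied less between mice than the median gene. Over the 72 subunits, the median s.d. of the log2 value came to 0.14 for CHR, 0.19 for PAP and 0.22 for SCC, against 0.17, 0.30 and 0.31 over all genes. Against genes with at least the median level of the subunits, the figures were 0.15, 0.30 and 0.30. Ndufa4 varied most of the 72 in PAP (0.59) and SCC (0.71), and Ndufs3 (0.04 in CHR), Ndufb6 (0.07 in PAP) and Ndufb5 (0.06 in SCC) varied least.

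Of the 13 subunits encoded in mitochondrial DNA, 7 were among the genes analysed. Absent were mt-Nd3, mt-Nd4l, mt-Co2, mt-Co3, mt-Atp6 and mt-Atp8. Together the 7 took 0.149 to 0.225% of the normalised reads in CHR, 0.183 to 0.279% in PAP and 0.173 to 0.242% in SCC. Near-identical stretches in other genes were not searched for these 7. How reads that fit several genes were counted is not given in the sources used here, so their values are uncertain. In PAP against CHR, 0 of the 7 fell and 3 rose (42.9%, against 22.8% of all genes), namely mt-Nd5 (log2 fold change 0.73 ± 0.20, adjusted p = 0.0048), mt-Nd6 (0.49) and mt-Nd2 (0.40). The median of the 7 was 0.22 in PAP against CHR and -0.17 in SCC against PAP. Cyc1, the cytochrome c1 of complex III, is not among the 79 members and rose by 0.48 ± 0.17 (adjusted p = 0.022). Cytochrome c itself, Cycs, had a value of 0.21 ± 0.16 (adjusted p = 0.281).

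Among the factors that build the complexes, all those called in PAP against CHR were higher, although others had values below 0. Among complex I assembly factors, 5 of 15 were higher and 0 lower, led by Ecsit (0.57 ± 0.12, adjusted p = 0.000696), and among complex IV assembly factors, 7 of 19 were higher and 0 lower, led by Cox18, which inserts a core subunit into the membrane (0.61 ± 0.11, adjusted p = 0.000267), and Lrpprc, which stabilises mitochondrial messages (0.51 ± 0.11, adjusted p = 0.00124). For complexes II, III and V it was 1 of 9, Uqcc2. In these lists, 3 of 15, 4 of 19 and 3 of 9 values lay below 0 in PAP against CHR. Acad9 was the lowest complex I factor (-0.61 ± 0.27, adjusted p = 0.067, lower in 6 of 6 mice). In SCC against CHR it was called lower (-1.30 ± 0.27, adjusted p = 0.00135). Mitochondrial ribosomal proteins, which translate the mitochondrial subunits, had 44 of 74 genes up and 0 down in PAP against CHR (59.5%, median log2 fold change 0.37) and 19 up and 0 down in SCC against CHR. Between PAP and SCC, 0 of the 74 were called by limma and 7 had an unadjusted p under 0.05, against 3289 of all 14521 genes. The shares of all genes to set beside these counts of calls are 22.8% higher in PAP against CHR, 15.1% higher in SCC against CHR and 5.58% in either direction in SCC against PAP.

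Enzymes of the citric acid cycle had 4 of 13 higher and 1 lower in PAP (38.5% called in either direction, against 51.5% of all genes). Idh3a, a subunit of isocitrate dehydrogenase, rose by 0.63 ± 0.15 (adjusted p = 0.00162) and Mdh2, the mitochondrial malate dehydrogenase, by 0.58 ± 0.12 (adjusted p = 0.000832), whereas Ogdh, of the oxoglutarate dehydrogenase complex, was lower at -0.38 ± 0.15 (adjusted p = 0.0404, and 0.0535 with the mouse as a block). Regulators of mitochondrial biogenesis had 5 of 14 higher and 2 lower (50% in either direction, near the share of all genes). Pprc1 (0.58), Yy1 (0.57), the mitochondrial transcription factor Tfam (0.51), Nrf1 (0.33) and the RNA polymerase Polrmt (0.30) were higher, and Esrrg (-0.65) and Ppargc1a (-1.37 ± 0.14, adjusted p = 6.04e-07), a coactivator abundant in muscle, were lower. Normalised reads of Ppargc1a were 54.6 ± 13.8 in CHR, 1.37 ± 1.34 in PAP and 6.73 ± 4.93 in SCC, with the means in the order of the muscle isoforms, although PAP and SCC differed by less than the threshold (adjusted p = 0.218).

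Outer membrane proteins and carriers had 4 of 15 higher and 4 lower in PAP (53.3% in either direction, against 51.5% of all genes). Vdac1, the outer membrane pore (0.50), Tomm70a, an import receptor (0.49), the phosphate carrier Slc25a3 (0.44) and the ubiquitous mitochondrial creatine kinase Ckmt1 (0.94 ± 0.22, adjusted p = 0.00163) were higher. Ckmt2, the creatine kinase of muscle mitochondria, which is also on the muscle marker list, Ucp3, Slc25a4 and Slc25a20 were lower (-3.40, -1.91, -0.85 and -0.71). The creatine kinases thus moved in opposite directions in PAP. Ckmt1 had 3673 ± 622, 7280 ± 2268 and 3831 ± 1265 normalised reads in CHR, PAP and SCC, and it was also lower in SCC than in PAP (-0.93 ± 0.22, adjusted p = 0.0288).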

How the data were processed

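RNA sequencing libraries of 18 samples from 6 mice were analysed. Per the labels, the authors used HTSeq and the mm10 build. The deposited values are the authors' counts per gene after scaling and a variance-stabilizing transformation as in DESeq2, on a linear scale and rounded to whole numbers, and were treated as a score in which 39 stands for 0 reads. A scaling by batch medians is also named in the methods, and whether it was applied here, the strand setting and the handling of reads that match several genes are not given in the sources used here. The 79 members and all gene lists were chosen with earlier results of these data known.

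Groups were compared with limma 3.58.1 in R 4.3.3. The input was log2(value + 1), 1 fit held the 18 libraries without a covariate, and p-values were adjusted by Benjamini-Hochberg across 14521 genes (threshold 0.05). A fold change on this scale understates that of low genes. The 21 rows named by a number (at most 0.236% of reads) were left out. The form of the transformation was inferred from the values, and size factors (0.835 to 1.18) were estimated from the spacing of low values. Recovered whole reads, transformed back, gave the deposited whole number exactly for 97.1% of values (99.8% of values under 100). Normalised reads are the inverted values, at a common depth. The inversion recovered simulated size factors within 0.29%, and on simulated data for PAP against CHR (14521 genes, 200 changed by 1 on the log2 scale) the test called 85.5% of the changed genes, with 4.47% false calls.

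The replicate number is the mouse in all 3 groups, so samples are paired by animal. The correlation of same-mouse deviations from the group means ranged from -0.245 to 0.507. Isoform ratios (1 added to each gene) were tested within mice by exact sign flips in scipy 1.17.1. A pair planned with Cox4i2 could not be tested, which left 12 tests instead of 15, and proteins were not compared. Coordinates are GRCm38 (GENCODE M21), the build of the labels.

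Named in full were, by rule, the muscle isoforms and other paralogues with their partners, the largest called rise and fall per complex and comparison, the member of each complex with the most reads, and complex II. Alternatives were the mouse as a block, other pseudocounts (0 and 10), a minimum mean of 10 normalised reads, a 2-group fit, limma-voom under 3 scalings, quantile normalisation, leaving out each mouse and, chosen after seeing the data, leaving out the carcinoma of mouse 10 or the papilloma of mouse 2. Values of other called members are given beside these in brief.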

Additional observations from a re-analysis of the deposited data

Results flagged for a closer look

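For 27 members and 4 isoform ratios, the highest and the lowest of the 6 libraries of each group were compared with the rest, and in 11 of 93 groups one library lay far from the others by Dixon's criterion at the 95% level. Chance alone passes this criterion in about 1 of 20 groups, and the values of one library are not independent of each other.

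Among the 11, 3 came from the papilloma of mouse 9, which had 37110 normalised reads of Atp5b (18234 to 22085 in the other 5), 2204 of Cox7a2 (1272 to 1534) and 1002 of Ndufa12 (528 to 623). The carcinoma of mouse 9 had 7044 normalised reads of Ndufa4 (1807 to 2620 in the other 5) and 1225 of Ndufa8 (877 to 959). The papilloma of mouse 10 had 1373 of Ndufa8 (972 to 1092).

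The carcinoma of mouse 10 was the lowest for Cox8b, at 0 normalised reads (26 to 44 in the other 5), for the log2 ratio of Cox8b over Cox8a, at -9.56 (-5.11 to -3.78), and for the log2 ratio of Cox6a2 over Cox6a1, at -9.08 (-4.39 to -2.57). The papilloma of mouse 2 was the highest for Cox8b, at 14 normalised reads (0 in the other 5), and for its ratio over Cox8a, at -5.88 (-9.57 to -8.68). The muscle marker sums of both libraries, given with the isoforms, stood apart from their groups in the same direction.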

How the results depend on the processing

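In PAP against CHR the counts of higher and lower members (15 and 3) stayed within 1.5 times except under quantile normalisation (40 higher); without each mouse they ranged from 11 to 16 and from 3 to 4. In SCC against PAP (3 and 2), the 2-group fit and the 3 limma-voom fits (recovered reads with size factors, total reads, or total reads without muscle and mitochondrial genes) each gave 0 and 0, quantile normalisation 1 and 1, leaving out 1 mouse 0 to 3 and 0 to 5, and leaving out the carcinoma of mouse 10 gave 7 lower. Unadjusted p-values under 0.05 numbered 3 higher and 8 to 22 lower members wherever such a count was 0. In the main fit of that comparison, 3289 of all 14521 genes passed that level. In SCC against CHR (2 and 6), limma-voom on total reads gave 4 higher, quantile normalisation 8, leaving out 1 mouse 0 to 3 higher (3 at an unadjusted p under 0.05 where the count was 0) and 5 to 6 lower, and leaving out the carcinoma of mouse 10 gave 1 higher.

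With the replicate block, that is the mouse as a term, the counts were 13 and 3, 3 and 2, and 2 and 6, and among the members it changed the calls of Atp5d, Cox7c, Ndufa11 and Ndufb2 in PAP against CHR and no other. Among the pathway lists it changed 10 calls, with Ogdh and Timmdc1 in PAP against CHR and Mrpl30 and Slc25a4 in SCC against CHR lost and 6 gained (Mrps18c and Tomm22 in PAP against CHR, Mrps22, Nrf1 and Suclg2 in SCC against CHR, and Ckmt2 in SCC against PAP). The log2 ratio of Cox8b over Cox8a in SCC against PAP, 3.50, passed the threshold when labels were permuted without regard to the mouse, and all other isoform ratios kept their direction and their side of the threshold under another pseudocount, the deposited values or unpaired labels, although those of the muscle isoforms shrank as given with them; with 5 mice the test cannot reach the threshold, and the values then moved by less than 1 s.d. Values that reversed were those of Ndufa4 in SCC against PAP (0.24 without mouse 10, range without each mouse -0.28 to 0.24) and against CHR (-0.04 without mouse 9, range -0.04 to 0.45) and Sdhc in SCC against PAP (-0.12 without mouse 2, range -0.12 to 0.20), none of which was called. The causes of these dependences were not tested. Depth limits the muscle isoforms in papillomas, where they had 0 to 6 reads outside mouse 2.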

Other observations

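Many subunit genes share near-identical stretches with other annotated genes. Overlapping neighbours were not left out, and whether the stretches are copies of the subunit genes was not examined. For 35 of the 79 members, at least 75 bases of the principal transcript matched another annotated gene at 95% identity or more. These 35 had a median of 463 normalised reads per kilobase of transcript over the 18 libraries, against 1249 for the other 44. Of the 20 members with the lowest level per kilobase, 15 had such a stretch, and the other 5 were Atp5s, Atp5sl and the muscle isoforms Cox6a2, Cox7a1 and Cox8b. Atp5g1 (25.8 reads per kilobase, 50 other genes with a shared stretch), Ndufb4 (30.1) and Uqcrb (46.2) were the lowest subunits on this measure, and Atp5b (9773) was the highest. The length used was that of the longest principal transcript, 4715 bases for Atp5g1 and 535 for Uqcrb. Without regard to length, Atp5g1 had more normalised reads than Uqcrb (means of 108 and 19.5 in CHR). How reads that fit several genes were counted is not given in the sources used here. The levels of these 35 genes are therefore uncertain, and they were picked out for description after values were seen. They had a median log2 fold change in PAP against CHR of 0.14, against 0.13 for the other 44, and 5 of the 35 and 13 of the 44 were called.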
